A study of Mus musculus with 2 samples.

Results

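Lymphoid-primed progenitors that carried Dntt and Flt3 RNA and little or no RNA of the early B-lineage genes were described in Lineage- cKit+ bone marrow of mice with floxed Trsp, the gene of the selenocysteine tRNA, that lacked or carried Mx1-Cre. They were chosen by measured values. A kept barcode had at least 1000 genes and under 10% of its unique molecular identifiers (UMIs, counts of captured molecules) from mitochondrial genes, and a member had at least 3 UMIs of Dntt, at least 1 of Flt3 and at most 1 of Ebf1, Il7r and Rag1 together. The rule gave 808 members of 14083 kept barcodes and 25928 barcodes in all, 450 of 8003 kept in the control library and 358 of 6080 in the knockout library.

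Control cells were Trsp f/f and knockout cells Trsp f/f:Mx1-Cre, both on C57BL/6. Both genotypes carried the floxed Trsp allele and received 3 injections of 500 µg pI-pC, given every other day to induce interferon. The series record mentions 7 weeks after birth without making clear which step it dates, and the marrow was taken from femora and tibiae 9 weeks after the last injection. Cre was driven by the interferon-inducible Mx1 promoter, which is not limited to lymphoid progenitors. The cells had been frozen and thawed, and the number of mice behind a library is not stated in the sources used here. Trsp itself was not analysed here. Each genotype is 1 library, so differences between genotypes are without replicates and were not tested, and every interval below is a 95% interval that covers counting error only.

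Lymphoid priming is the step at which multipotent progenitors, while still able to give myeloid cells, begin to transcribe lymphoid genes. Flt3 is the receptor of a cytokine that sustains these progenitors, and Dntt encodes terminal deoxynucleotidyl transferase, which adds bases at the joints of rearranging antigen receptor genes. Satb1, a chromatin organiser, and Notch1, the receptor whose signal directs T-lineage entry, mark the same stage, while Ebf1, Il7r and Rag1 come up as cells commit to the B lineage. Selenoproteins, which need the selenocysteine tRNA for their translation, include enzymes that reduce peroxides, and NRF2 is the transcription factor that raises antioxidant genes under oxidative stress.

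The files held 184683653 UMIs for the control and 152092210 for the knockout library. Members had a median of 17029 UMIs in the control and 18619 in the knockout library, below the medians of 20634 and 22444 over all kept barcodes, and mitochondrial UMIs made up a median of 3.79% and 4.34% of their UMIs. The libraries shared 39 barcode sequences among all barcodes, 11 among kept barcodes and 0 among members. Of the members, 16 control and 12 knockout cells lay above the doublet score threshold found in the control library.

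The label of the cells was checked on the markers that the rule did not use. Levels are given as CPM, the UMIs of a gene summed over a group of cells, per 1000000 UMIs of that group. Satb1 (ENSMUSG00000023927, GRCm38 chromosome 17, 51736187 to 51833290) stood at 240 CPM in control members (229 to 250.4) and 251 in knockout members (240.1 to 263). Notch1 (ENSMUSG00000026923, chromosome 2, 26457903 to 26516663) stood at 124 CPM (117 to 132) and 148 CPM (139 to 157). Satb1 was detected, with 1 UMI or more, in 96.0% of control members and 96.1% of knockout members. Erythroid cells of the same libraries, which should lack it and are defined below, gave 16.3% and 7.69%. Notch1 was detected in 81.1% and 84.6% of members and in 10.9% and 11.97% of erythroid cells. The members thus carried both markers in both libraries, at higher shares than erythroid cells. This does not place them before B commitment. Cells that met the Dntt and Flt3 limits but had exactly 2 UMIs of Ebf1, Il7r and Rag1 numbered 25 in the control and 37 in the knockout library. Those cells held 305 and 329 CPM of Satb1 and 196 and 207 CPM of Notch1, and no interval was computed for them.

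Genes of the B lineage ranged from absent to well detected. Pax5, the factor that fixes B identity, had 0 UMIs in the members of either library, which allows up to 0.367 CPM in the control and 0.410 CPM in the knockout library. Cd79a, a subunit of the B-cell receptor, had 1 UMI in the control and 3 UMIs in the knockout library. Cd79b, its partner subunit, stood at 31.8 CPM in control and 29.6 CPM in knockout members, near the 31.8 and 30.9 CPM of cells with Flt3 but no Dntt, and above the 4.58 and 1.82 CPM of erythroid cells. Ighm, the immunoglobulin heavy chain locus, was detected in 97.8% and 98.6% of members and in 56.5% and 52.1% of erythroid cells, with 464 CPM (449 to 479) and 552 CPM (535 to 569.5) in members. Cd3e, a subunit of the T-cell receptor complex, had 0 UMIs in both. Rag2, the partner of Rag1 in receptor rearrangement, was detected in 14.0% of control members (10.9% to 17.6%) and 20.4% of knockout members (16.3% to 24.9%), and in 0 of the 92 control and 117 knockout erythroid cells. Among the listed plasmacytoid dendritic markers, Siglech was detected in 2.22% of control and 2.79% of knockout members. Cox6a2, another of them, stood at 62.8 and 45.6 CPM. Irf8 was detected in 78.7% and 75.4% of members and in 23.9% and 23.1% of erythroid cells.

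RNA free in the suspension can enter any droplet, and erythroid cells served as a guide to that background. They were kept barcodes outside the members with at least 2 UMIs each of Klf1 and Car1. Mpo, the myeloperoxidase of granulocyte progenitors, was detected in 97.1% of control members and 96.9% of knockout members, and in 97.8% and 98.3% of erythroid cells, so these shares are not read as expression. The level of Mpo in members, 1193 CPM in the control (1170 to 1217) and 1028 CPM in the knockout library (1005 to 1052), was above the 721 and 200.4 CPM of erythroid cells. Over the 21 listed neutrophil and monocyte genes the erythroid cells summed to 2143 CPM in the control but 599 CPM in the knockout library, against 4121 and 3304 CPM in members. How much of this RNA in erythroid cells was free RNA was not tested. Any Dntt UMI was present in 6.52% of control and 7.69% of knockout erythroid cells.

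The values that chose the members spanned a wide range and are given as a description. Dntt had a median of 9 UMIs per member in both libraries, from 3 to 98 in the control and from 3 to 74 in the knockout library. Flt3 had a median of 5 UMIs in control members (1 to 17) and 6 in knockout members (1 to 21). At the Dntt limit, the 59 control members with exactly 3 UMIs held 172 CPM of Satb1 and the 99 kept control barcodes with 2 UMIs held 148 CPM. In the knockout library the 45 members with 3 UMIs held 183 CPM and the 81 barcodes with 2 UMIs held 202 CPM. Satb1 was thus higher just inside the limit in the control library and lower just inside it in the knockout library. No interval was computed for these small groups, so the directions are not read further. Of the members, 10.2% of control and 15.1% of knockout cells had the 1 UMI of Ebf1, Il7r or Rag1 that the rule allows.

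Members were set beside 2 other populations of the same libraries. The first were kept barcodes with Flt3 but no Dntt UMI and at most 1 UMI of Ebf1, Il7r and Rag1 together, called Flt3-only cells, of which there were 2159 control and 1736 knockout cells. The second, called Ebf1/Il7r/Rag1-high cells, met the Dntt and Flt3 limits but had 2 or more UMIs of those 3 genes, and numbered 86 in the control and 204 in the knockout library. Since the rule chose these groups from the same cells, the differences below describe them and are not tests. A gene counted as higher or lower when it was at least 1.5-fold apart in the same direction in both libraries, and as measured at 20 CPM in 1 of the groups and 50 UMIs over both.

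Against Flt3-only cells, members had more RNA of lymphoid genes and less of myeloid and antigen-presentation genes. Of 6107 measured genes 240 were higher (3.93%) and 217 lower (3.55%). Of the 16 measured lymphoid priming regulators 8 were higher and 0 lower, with medians over the list of 0.61 in the control and 0.64 in the knockout library on the log2 scale. Satb1 stood at 70.0 and 76.0 CPM in Flt3-only cells, log2 ratios of 1.77 and 1.73. Mef2c, which promotes lymphoid over myeloid fate, stood at 247 CPM in control Flt3-only cells and 549 CPM in control members, and at 280 and 609 CPM in the knockout library. Bcl11a, Tcf4, Sox4, Ikzf1 and Runx2 were the other regulators among the 8, besides Notch1.

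The 10 highest ratios lay outside the priming regulators. Arpp21, an RNA-binding phosphoprotein, stood at 0.730 CPM in control Flt3-only cells and 33.0 CPM in control members, and at 0.746 and 30.7 CPM in the knockout library. Cmah, the hydroxylase of a sialic acid precursor, went from 1.16 to 39.1 CPM and from 1.54 to 61.3 CPM. Cox6a2, a cytochrome oxidase subunit also listed here as a plasmacytoid dendritic marker, had log2 ratios of 3.46 and 3.40. Il12a, a subunit of interleukin 12, had 2.37 and 2.23. Tbxa2r, Wfdc17, Emp1, Il18rap, Rgl1 and Gm5111 made up the rest of the 10 highest. Each of these was higher in members in both libraries by nearly the same ratio.

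On the lower side, 15 of the 20 measured neutrophil and monocyte genes were lower and 0 higher. F13a1, a coagulation factor made by monocytes, stood at 277 CPM in control Flt3-only cells and 36.0 CPM in control members, and at 240 and 21.7 CPM in the knockout library. The class II genes that present peptides to T cells were lower as well, 5 of 6 measured, with H2-Eb1 at 72.2 and 5.51 CPM in the control and 82.7 and 6.01 CPM in the knockout library. Plbd1, Jchain, Lgals3, Cd74, H2-Aa, Ccr2, Ifi30 and Igkc were also among the 10 lowest, with ratios at or below −2.74 in both libraries. The Flt3-only rule set no limit on genes of other lineages. Jchain stood at 198 CPM in control and 101 CPM in knockout Flt3-only cells, and Cd74 at 300 and 333 CPM. How far cells of other lineages made up these differences was not tested.

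Against Ebf1/Il7r/Rag1-high cells, members kept more RNA of stem and multipotent progenitor genes. Of 6046 measured genes 65 were higher (1.08%) and 99 lower (1.64%), and 1 was called in opposite directions in the libraries (0.0165%). Of the 12 measured stem and multipotent genes 7 were higher and 0 lower. Hlf, a transcription factor of stem cells, stood at 85.5 CPM in control members and 21.3 CPM in the Ebf1/Il7r/Rag1-high cells, and at 116 and 22.8 CPM in the knockout library. Mecom, another stem cell factor, had ratios of 1.69 and 2.76 on the log2 scale, and Kit, the receptor used for the sort, had 1.23 and 1.21. Cd34 stood at 424 CPM in control members and 247 in the compared cells, and at 441 and 255 CPM in the knockout library.

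B-lineage genes went the other way in this comparison. Of 6 measured B commitment genes 4 were lower in members and 0 higher. Ly6d, a surface protein that appears as common lymphoid progenitors commit to the B lineage, stood at 12.5 CPM in control members and 244 CPM in the Ebf1/Il7r/Rag1-high cells, and at 5.87 and 143 CPM in the knockout library. Blnk, an adaptor of the B-cell receptor, had log2 ratios of −2.56 and −3.21, and Rag2 had −1.86 and −1.58. Foxo1, which works with Ebf1 in early B cells, had −1.89 and −1.73. Bfsp2, Tmem108, Myl10 and Myl4 were lower too, as were Arpp21, Cox6a2 and Cmah, which were higher in members than in Flt3-only cells. Hes1, a target of Notch signalling, stood at 25.4 and 80.0 CPM in the control and at 23.5 and 93.9 CPM in the knockout library.

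Within the members, cells of each library were ordered by Dntt UMIs per total UMIs and divided into 3 groups of nearly equal size. Because a member needs 3 Dntt UMIs, a low value is open only to cells with many UMIs, and depth and cycling, called as described below, moved with the groups. The median UMIs from low to high Dntt were 20495, 16212 and 14613 in the control and 22513, 16970 and 16493 in the knockout library. Cycling members made up 70.7%, 57.3% and 54.4% of the groups in the control and 90 of 120, 57 of 119 and 56 of 119 members in the knockout library. The part of depth and cycling in the differences between these groups was not tested. Of 6069 measured genes 112 were higher in the group with most Dntt than in the group with least (1.85%) and 101 were lower (1.66%), and 3 were called in opposite directions in the libraries (0.0494%). Notch1 stood at 77.4, 122 and 191 CPM from low to high Dntt in the control and at 104, 128 and 230.1 CPM in the knockout library. Satb1 stood at 189, 234 and 314 CPM and at 196, 250.4 and 329 CPM. Hes1 stood at 10.6, 12.7 and 59.8 CPM in the control and at 10.0, 27.3 and 37.7 CPM in the knockout library. Each of the 3 genes was lowest in the low-Dntt group and highest in the high-Dntt group of both libraries, although the counting intervals of Hes1 overlapped between the low and middle groups of the control.

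Myeloid genes were lower at high Dntt, in groups that also held fewer cycling cells. Of the 15 measured neutrophil and monocyte genes 11 were lower and 0 higher in the high-Dntt group. Elane, neutrophil elastase, stood at 729.7, 503 and 193 CPM from low to high Dntt in the control and at 472, 549 and 142 CPM in the knockout library, where the middle group was the highest. Hlf was at 102, 97.7 and 49.2 CPM and at 135, 137 and 67.4 CPM. Cd34 differed little, at 413, 441 and 421 CPM in the control and at 427, 477 and 420.0 CPM in the knockout library.

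**Figure D1:**
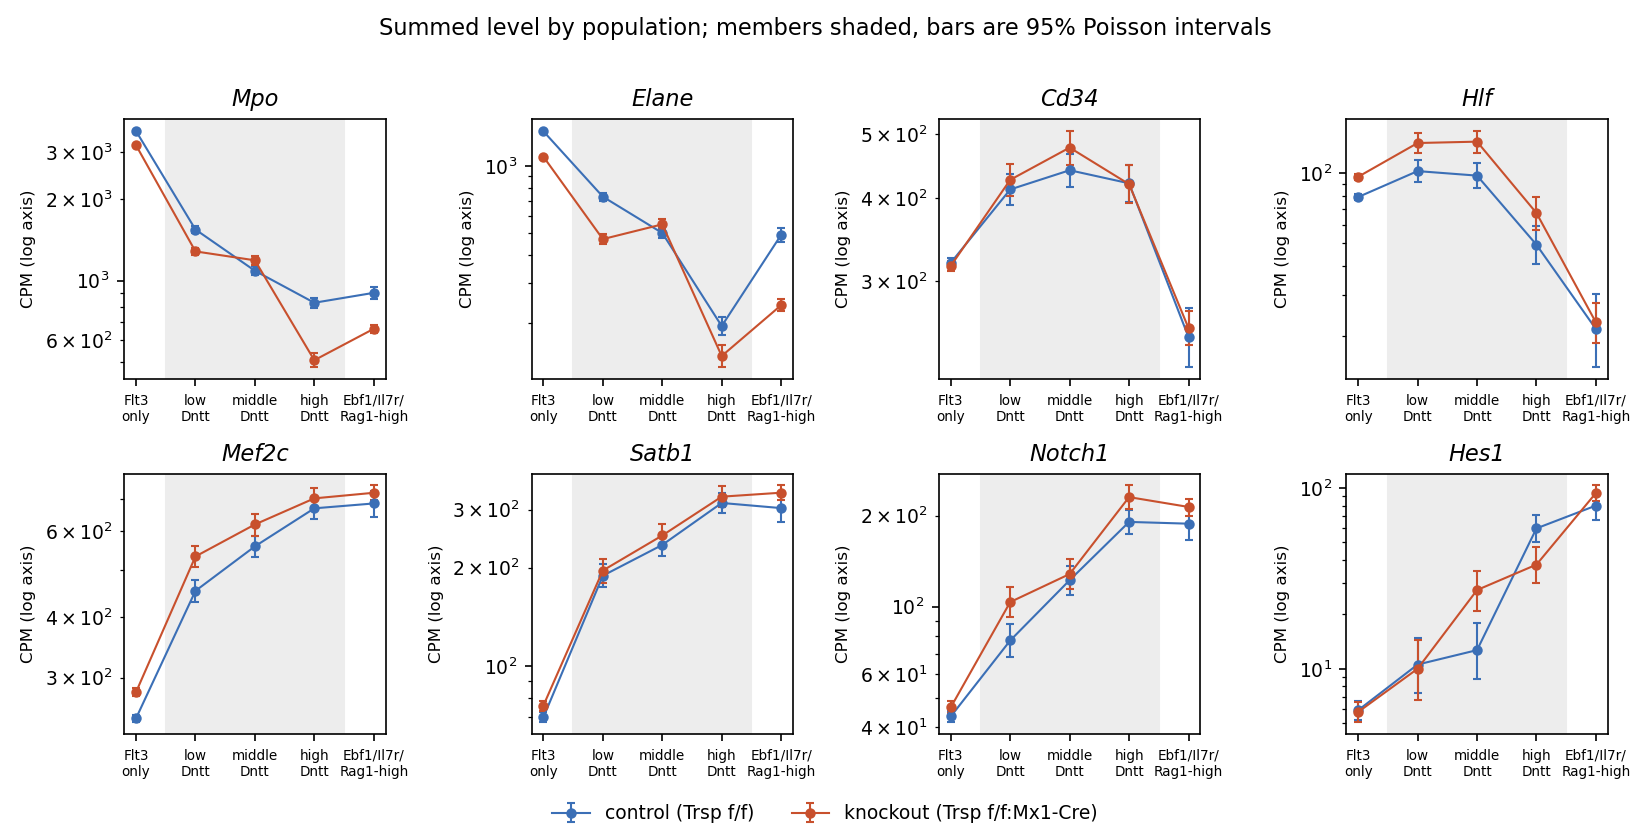
Summed level of 8 genes in CPM (log axis) in Flt3-only cells, in members divided into 3 groups by Dntt (shaded) and in Ebf1/Il7r/Rag1-high cells, with 1 line per library and bars for 95% Poisson intervals. Satb1, Notch1 and Mef2c are lowest in Flt3-only cells and increase through the members, Mpo is highest in Flt3-only cells, and Hlf and Cd34 are lowest in the Ebf1/Il7r/Rag1-high cells.

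Cycling was read from UMIs of S phase and G2/M genes after each member was thinned at random to 5000 UMIs, which left out 1 control member of fewer UMIs. A member with at least 5 UMIs of the 41 G2/M genes or at least 20 of the 30 S phase genes counted as cycling. By this rule 273 of 449 control members cycled, 60.8% (56.1% to 65.3%), and 203 of 358 knockout members, 56.7% (51.4% to 61.9%). Both calls come from a continuous range, and 23.4% of control and 19.6% of knockout members lay within 1 UMI of a limit. The G2/M limit was met by 56.6% of control and 52.0% of knockout members, and a further 4.23% and 4.75% met only the S phase limit. Read on UMIs as deposited with the limits scaled to depth, the shares were 53.6% in both libraries. By the same rule 71.7% of control and 71.6% of knockout Flt3-only cells cycled, and 53.5% and 55.9% of Ebf1/Il7r/Rag1-high cells.

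**Figure D2:**
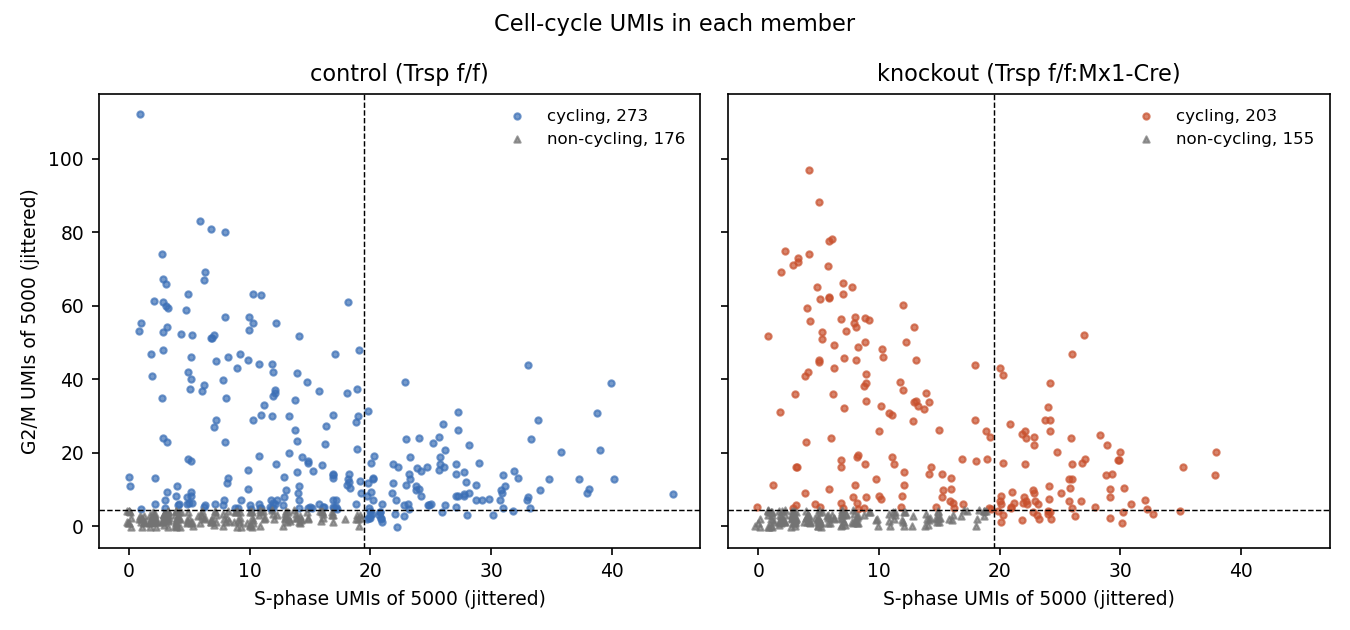
UMIs of S phase genes (x axis) and of G2/M genes (y axis) of 5000 in each thinned member, control on the left and knockout on the right, with points moved slightly at random and dashed lines at the limits. In each library a dense group of non-cycling members lies under both limits, with 176 control and 155 knockout cells, and cycling members spread along both axes.

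Cycling members carried more UMIs, with a median of 20456 UMIs against 12718 in non-cycling members of the control library and 22889 against 14847 in the knockout library. Leaving out the genes that define the calls, 343 of 6039 measured genes were at least 1.5-fold higher in cycling members of both libraries (5.68%) and 99 were lower (1.64%). No gene was called in opposite directions in the 2 libraries. Ranked by the smaller of the 2 libraries' ratios, the first was Kif4, a chromosome-bound motor, at 0.843 CPM in non-cycling and 33.0 CPM in cycling control members and at 0.829 and 48.7 CPM in knockout members. Cep55 of cell separation, Esco2 and Sgo2a of sister chromatid cohesion, Cdkn3, Spag5, Espl1 (separase), Ccnf, Neil3 and Aspm completed the 10 highest. Of the 16 listed histone genes 13 were higher and 0 lower, with Hist1h1b at 24.4 and 375 CPM in the control and 17.8 and 337 CPM in the knockout library.

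Non-cycling members held more RNA of several lymphoid surface genes. Ccr9, the chemokine receptor for homing to thymus and gut, stood at 21.5 CPM in non-cycling and 2.59 CPM in cycling control members, and at 23.6 and 5.70 CPM in knockout members. Of 19 measured lymphoid surface and signalling genes 7 were lower in cycling members and 1, Cxcr4, was higher. Of 16 measured genes of cell cycle brakes and quiescence 3 were lower in cycling members and 2 higher. Btg2, a brake on proliferation, stood at 353 CPM in non-cycling and 187 CPM in cycling control members, and at 395 and 205 CPM in knockout members. Its relative Btg1 and Cdkn1b, the cyclin-dependent kinase inhibitor p27, were the other 2 lower genes. The higher ones were Cdkn2c and Cdkn2d, inhibitors of the G1 kinases, with log2 ratios of 1.58 and 1.23 and of 0.79 and 0.63, while Cdkn1a, the inhibitor p21, had 0.01 and 0.13. Hes1 had log2 ratios of −1.34 and −1.29 for cycling over non-cycling members, and Ccl4, Wfdc17, Wfdc18, Kdm7a, Tcp11l2, Dlgap4, Zfp467 and Tox were the other 8 among the 10 lowest.

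Of the 16 measured regulators of lymphoid priming 0 were called in either direction between the cycle groups, beside 5.68% higher and 1.64% lower over all measured genes. Satb1 had log2 ratios for cycling over non-cycling members of −0.47 in the control and −0.59 in the knockout library, and Notch1 had −0.48 and −0.50, so both leaned toward non-cycling members without reaching 1.5-fold in both libraries. Bcl11a, Sox4, Runx2, Tcf4 and Mef2c leaned the same way, with ratios from −0.60 to −0.37 and intervals below 0 in both libraries. Ikzf1 had −0.14, with an interval that included 0, and −0.31. Neutrophil and monocyte genes were higher in cycling members, 7 of 15 measured with 0 lower. Elane stood at 161 CPM in non-cycling and 643 CPM in cycling control members and at 252 and 474 CPM in knockout members. The summed level of that list was 2101 CPM in non-cycling control members, near the 2143 CPM of control erythroid cells, while the 2304 CPM of non-cycling knockout members was above the 599 CPM of knockout erythroid cells. The part of free RNA in these differences was not tested.

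The ratio of the members' shares in the 2 genotypes changed when barcodes were thinned before the rule. Members made up 5.62% of kept control barcodes (5.13% to 6.15%) and 5.89% of kept knockout barcodes (5.31% to 6.51%), a log2 ratio of shares of 0.07 (−0.13 to 0.26). Every kept barcode of at least 5000 UMIs was thinned to that depth, which left out 93 control and 502 knockout barcodes. The shares were then 2.95% and 4.07%, a log2 ratio of 0.47 (0.21 to 0.73). After thinning, the Dntt limit is harder to reach and the limit on Ebf1, Il7r and Rag1 harder to pass. The thinned rule thus chose a different set of cells. Without thinning, the share of cells that met the Dntt and Flt3 limits alone had a log2 ratio of 0.46 (0.30 to 0.63). These cells made up 6.70% of control (6.16% to 7.27%) and 9.24% of knockout kept barcodes (8.53% to 10.0%). Of these, 86 of 536 in the control library had 2 or more UMIs of Ebf1, Il7r and Rag1, or 16.04% (13.04% to 19.4%). In the knockout library 204 of 562 did, or 36.3% (32.3% to 40.4%). At 5000 UMIs the same shares were 13.1% (9.27% to 17.7%) and 22.8% (18.1% to 28.0%). The share past the rule's limit on these 3 genes was higher in the knockout library at both depths.

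The share of cycling members, 60.8% and 56.7%, gave a log2 ratio of −0.10 (−0.27 to 0.07), an interval that includes 0. Of the 41 G2/M genes 39 were measured in members, 3 were at least 1.5-fold higher in the knockout library and 0 lower. These were Pimreg at 33.2 and 58.6 CPM, Psrc1 at 12.8 and 20.2 CPM, and Kif20a, a motor of cytokinesis, at 20.2 and 30.6 CPM. Of 29 measured S phase genes 1 was lower, Mcm7 of the replicative helicase, at 245 CPM in control and 156 CPM in knockout members, and 0 were higher. The list medians were 0.23 for G2/M and −0.11 for S phase genes. Over all measured genes 1.27% were called higher and 0.788% lower, so 1 call among the S phase genes says little.

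Over all 6220 measured genes, 79 were at least 1.5-fold higher (1.27%) and 49 lower (0.788%) in knockout than in control members, with a median log2 ratio of 0.04. Each of these had a counting interval that excluded 1-fold. In both cycling and non-cycling members the direction held for 75 of the higher and 46 of the lower genes.

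Selenoprotein RNAs were 5 of the 12 lowest named genes. Of 24 listed genes 12 were measured, 7 were at least 1.5-fold lower and 0 higher, with a median log2 ratio of −0.66. Selenoh, a nucleolar selenoprotein (ENSMUSG00000076437, GRCm38 chromosome 2, 84669215 to 84670770), stood at 233 CPM in control and 26.2 CPM in knockout members, a ratio of −3.15 (−3.38 to −2.94). Selenow, a small thioredoxin-like protein, stood at 142 and 17.3 CPM, −3.03 (−3.31 to −2.77). The cytosolic peroxidase Gpx1 (ENSMUSG00000063856) lies on chromosome 9, 108338903 to 108340343, and had 996 and 176 CPM, −2.50 (−2.58 to −2.41). Gpx4, which reduces lipid hydroperoxides in membranes, stood at 299 and 93.4 CPM, −1.68 (−1.80 to −1.56). Over the other kept cells of the libraries Selenoh had −3.35, Selenow −2.72, Gpx1 −2.58 and Gpx4 −1.65, so their lower level was not particular to members.

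The other 8 measured selenoproteins ranged from lower to slightly higher. Selenop, the selenium carrier, had a log2 ratio of −1.73, with −1.75 over the other kept cells. Selenof and Selenot of the endoplasmic reticulum had −0.72 and −0.61. Selenok, Msrb1, Selenos and Txnrd1 lay within 1.5-fold, at −0.33, −0.26, −0.08 and −0.08. Sephs2, which makes the selenium donor for selenocysteine, was at 34.6 and 47.5 CPM, 0.46 (0.23 to 0.69). Gpx1 was at 1079.8, 975 and 903 CPM from low to high Dntt in control members and at 182, 172 and 172 CPM in knockout members, so its level was lower in the knockout library in each group.

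The lower level was spread over the members. After thinning to 5000 UMIs, control members had a median of 11 selenoprotein UMIs (2 to 31) and knockout members a median of 4 (0 to 14). At least 6 were present in 96.2% of control members (94.0% to 97.8%) and 28.5% of knockout members (23.9% to 33.5%). The cut of 6 equals the 5th percentile of control members, so the control share follows from the cut and only the knockout share is informative. The ranges overlapped, and the counts do not tell which single cells had deleted Trsp. In cycling members the medians were 12 and 5, and in non-cycling members 10 and 4. By gene, 7 of 12 measured selenoproteins were lower in cycling members, with 0.894% of all measured genes called lower there, and 6 of 14 in non-cycling members, with 1.75%.

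**Figure D3:**
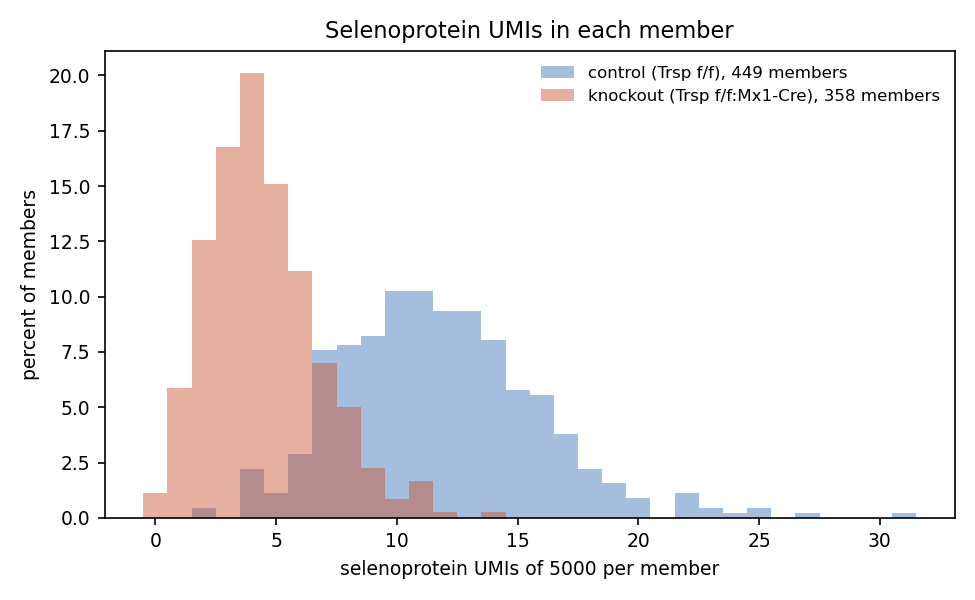
Selenoprotein UMIs of 5000 in each thinned member (x axis) against the percent of members of that library (y axis), control in blue and knockout in orange. Knockout members centre on 4 UMIs and control members on 11, with overlap between 2 and 14 UMIs.

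NRF2 target genes were higher in part. Of 25 listed genes 17 were measured, 5 were at least 1.5-fold higher in knockout members and 0 lower, with a median log2 ratio of 0.29 against 0.04 over all measured genes. Gclm, a subunit of glutamate-cysteine ligase, with which glutathione synthesis begins (ENSMUSG00000028124, GRCm38 chromosome 3, 122245557 to 122270732), stood at 52.97 CPM in control and 123 CPM in knockout members, 1.21 (1.05 to 1.38). Over the other kept cells Gclm had 1.41, so its higher level was not particular to members. Ftl1, the ferritin light chain, stood at 334 and 647 CPM, 0.96 (0.89 to 1.02). Gstm1, a glutathione transferase, had 0.76, catalase (Cat) 0.71 and glutathione reductase (Gsr) 0.69. Txnrd1, which is also a selenoprotein, had −0.08.

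The promoters of the list were searched for TGACNNNGC, the core of the antioxidant response element that NRF2 binds, on both strands of the 250 bases before each RefSeq start (GRCm38.p6). The core can overlap TGACTCA, the element of AP-1 factors. Of the 25 genes 21 had a promoter in the table, and 6 of their 28 promoters held the core (21.4%), against 10.2% of all 32851 promoters. Windows around the cores of 4 of the measured genes are shown, 1 called higher in knockout members (Gclm) and 3 not called (Prdx1, Txnrd1 and G6pdx), each read 5′ to 3′ on the gene's strand with the core, here on the opposite strand, in capitals.
Gclm, chr3:122245398-122245456, plus strand: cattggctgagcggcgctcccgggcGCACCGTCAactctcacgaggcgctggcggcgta
Prdx1, chr4:116685441-116685499, plus strand: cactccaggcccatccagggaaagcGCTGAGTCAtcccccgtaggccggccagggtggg
Txnrd1, chr10:82859089-82859147, plus strand: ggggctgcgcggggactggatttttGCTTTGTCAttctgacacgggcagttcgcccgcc
G6pdx, chrX:74428904-74428962, minus strand: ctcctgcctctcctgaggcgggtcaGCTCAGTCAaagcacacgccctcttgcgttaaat
The core began 134 bases before the start in Gclm, 133 in Prdx1, 92 in Txnrd1 and 57 in G6pdx. Prdx1, a peroxiredoxin, had a log2 ratio of 0.22 and G6pdx, the first enzyme of the pentose phosphate pathway, 0.29. A match describes the letters only.

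The 2 cycle groups were also read apart. In cycling members 7 of 17 measured genes were at least 1.5-fold higher, with 2.03% of all measured genes called higher, against 2 of 16 in non-cycling members, with 2.86%. The list median was 0.35 in cycling and 0.00 in non-cycling members. Gclm had 1.46 in cycling (1.27 to 1.66) and 0.51 in non-cycling members (0.17 to 0.85). Ftl1 had 1.19 (1.11 to 1.27) and 0.33 (0.19 to 0.46), while Gsr had 0.71 in both. Whether the ratios differ between the cycle groups was not tested, since each group is 1 library per genotype.

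**Figure D4:**
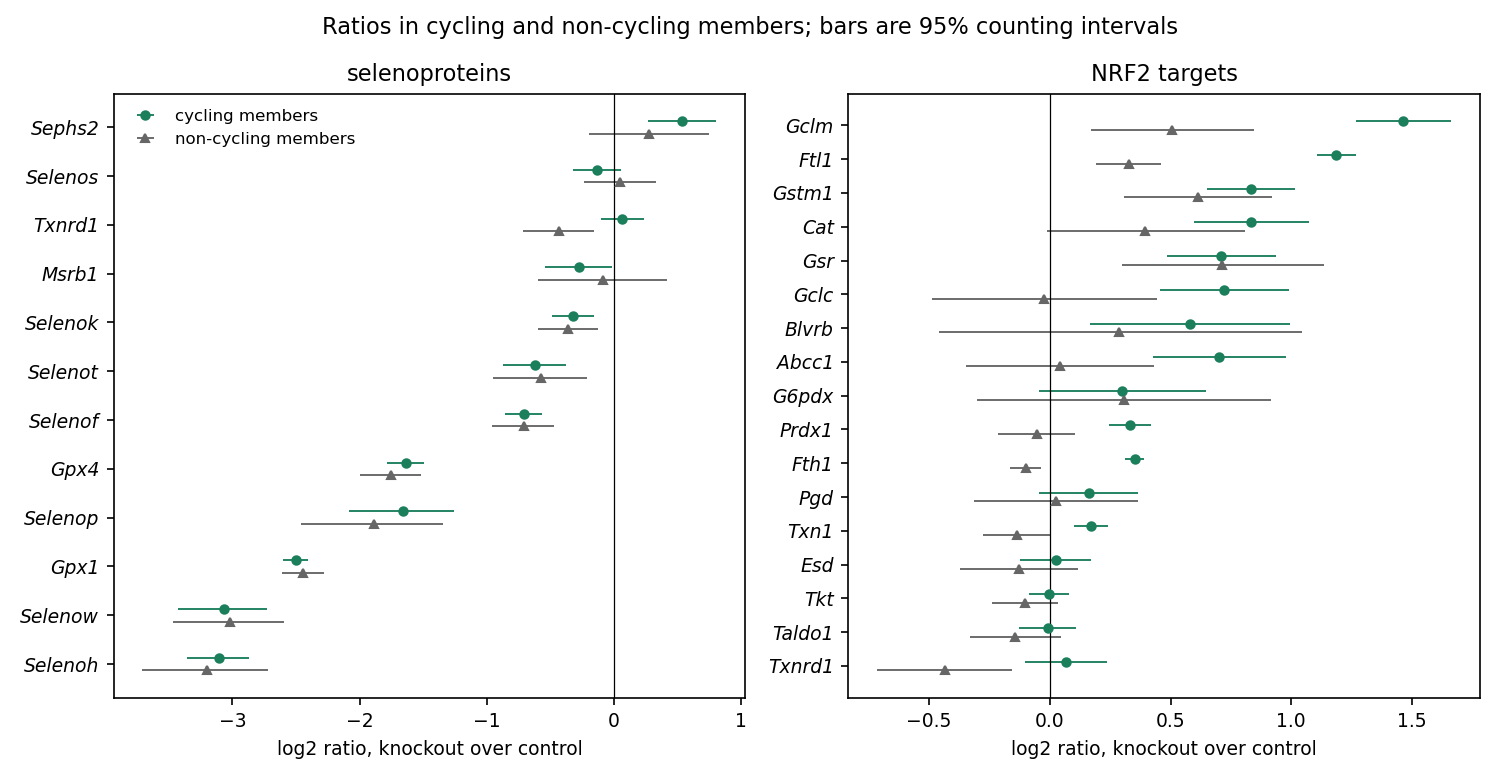
Log2 ratio of knockout over control (x axis) for each measured selenoprotein (left) and NRF2 target (right) in cycling members (green circles) and non-cycling members (grey triangles), with bars for 95% counting intervals. Selenoh, Selenow, Gpx1, Selenop and Gpx4 lie near the same values in both groups, while Gclm and Ftl1 lie further right in cycling members.

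Among the 12 highest genes were several with close copies, whose 3′ reads may not be told apart. Hist1h2ap stood at 44.7 CPM in control and 368 CPM in knockout members, Hist1h2ae at 68.1 and 231 CPM, Gm10076 at 55.9 and 362 CPM, Rpl35 at 560 and 1487 CPM, Eno1 at 18.6 and 49.6 CPM and Dynlt1f at 11.99 and 27.9 CPM. Over the other kept cells of the libraries the ratio of Hist1h2ap was 3.04, as in members, and that of Eno1 was 1.68, against 1.41 in members. Adgre5, the adhesion receptor CD97, stood at 7.71 and 22.4 CPM, 1.54 (1.11 to 1.98). Txnip, the inhibitor of thioredoxin, stood at 91.6 and 198 CPM, 1.11 (0.98 to 1.24). Over the other kept cells Adgre5 had 1.23 and Txnip 0.998, so their higher level was not particular to members. Gsn, the actin-severing gelsolin, was at 1.12 in members and 0.43 in other kept cells, and Tanc1 at 1.12 and 0.61. In Ebf1/Il7r/Rag1-high cells Gsn was at 0.71 and Tanc1 at 0.86. Gm15564 was at 15.8 and 40.5 CPM.

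On the lower side Ctse, the aspartic protease cathepsin E (ENSMUSG00000004552, GRCm38 chromosome 1, 131638306 to 131675505), had the lowest ratio of the named genes, with 50.6 CPM in control and 4.91 CPM in knockout members, −3.37 (−3.90 to −2.87). Over the other kept cells its ratio was −3.07. Gnb4, a G protein beta subunit, stood at 29.4 and 10.1 CPM in members, −1.54, against −0.64 in other kept cells. In Ebf1/Il7r/Rag1-high cells Gnb4 had −1.66, so its lower level was not particular to members. Phpt1, a phosphohistidine phosphatase, had −1.43, Wdr89 −1.32, and Rnaset2a and Rpl9-ps6, which have close copies, −1.61 and −1.47. Over the other kept cells Phpt1 had −1.43, Wdr89 −1.29, Rnaset2a −1.51 and Rpl9-ps6 −1.37. Mcpt8, a basophil protease, stood at 45.9 and 11.7 CPM, but 193 of its 375 control UMIs came from 1 member, and without the member with most UMIs in each library its ratio was −1.08 in place of −1.97.

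**Figure D5:**
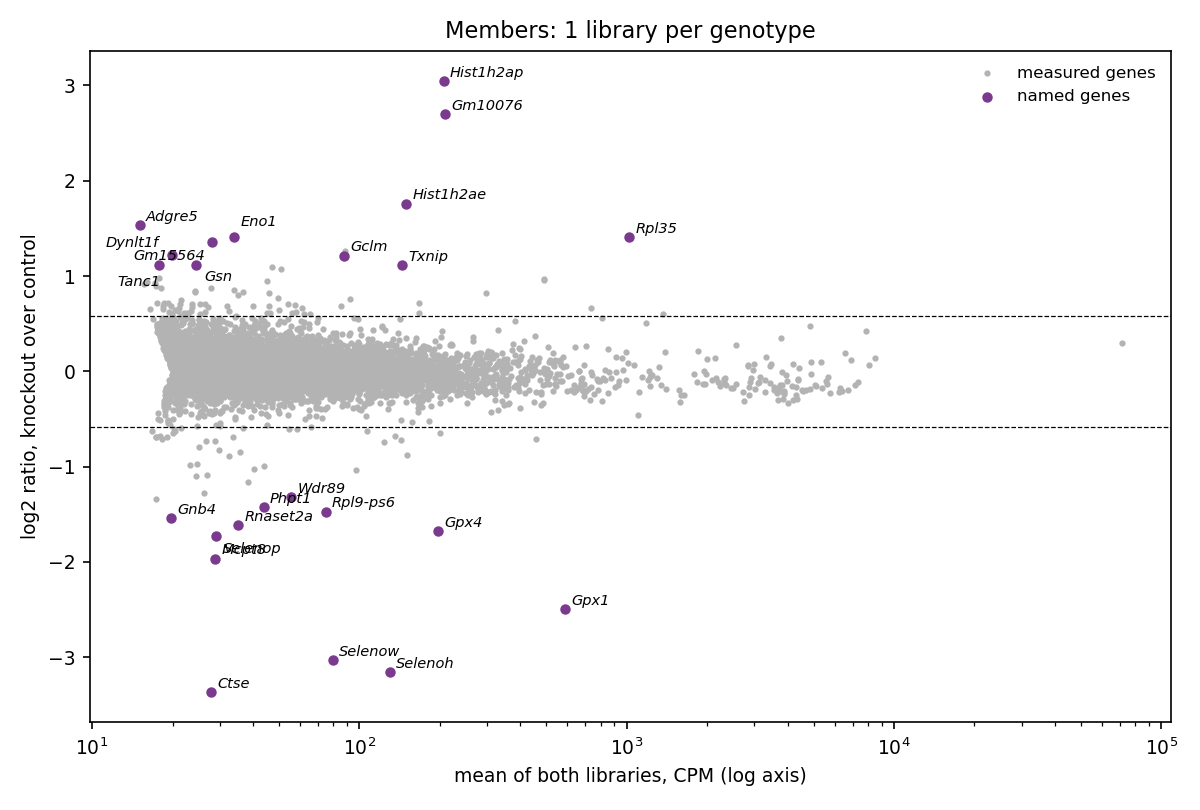
Log2 ratio of knockout over control in members (y axis) against the mean level of both libraries in CPM (x axis, log) for the 6220 measured genes, with the 24 named genes labelled and dashed lines at 1.5-fold. Ctse, Selenoh, Selenow and Gpx1 lie lowest and Hist1h2ap highest, and most genes lie between the lines.

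Of the 16 measured lymphoid priming regulators and 17 lymphoid surface and signalling genes 0 were at least 1.5-fold apart between the genotypes, with medians of 0.07 and 0.03. Over all measured genes 1.27% were called higher and 0.788% lower, so 0 calls in short lists, here and below, says little. Notch1, given above, was higher in knockout members, with intervals that did not overlap. Mef2c stood at 549 CPM in control and 609 CPM in knockout members, 0.15 (0.09 to 0.21), Sox4 at 534 and 576 CPM, 0.11 (0.05 to 0.17), and Ikzf1, the lymphoid factor Ikaros, at 202 and 219 CPM, 0.11 (0.01 to 0.21). Cytokine receptors gave 0 calls of 18 measured, with the common gamma chain Il2rg at 31.0 and 43.7 CPM, 0.50 (0.25 to 0.74). In the rule's own genes, given as a description, Dntt was at 781 and 695 CPM and Flt3 at 306 and 344 CPM.

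Stem and multipotent genes also gave 0 calls of 13 measured, with a median of 0.18. Hlf stood at 85.5 CPM in control and 116 CPM in knockout members, 0.44 (0.29 to 0.59), with 0.65 in cycling and 0.07 in non-cycling members. Cd48 was at 124 and 89.0 CPM, −0.47 (−0.62 to −0.33).

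Myeloid lists were lower in part. Of 15 measured neutrophil and monocyte genes 3 were at least 1.5-fold lower and 0 higher, with a median of −0.30. Ly86 stood at 58.6 CPM in control and 29.5 CPM in knockout members, −0.99 (−1.23 to −0.76), Ctsg, the protease cathepsin G, at 568 and 348 CPM, −0.71 (−0.78 to −0.64), and F13a1 at 36.0 and 21.7 CPM, −0.73 (−1.02 to −0.45). Erythroid cells held 292 and 55.8 CPM of Ctsg and 24.0 and 4.74 CPM of F13a1 in the control and knockout libraries. Both genes were thus also lower in knockout erythroid cells. How much of this was free RNA, and its part in the ratios, was not tested. For Ly86 the erythroid levels were 8.87 and 2.55 CPM. In non-cycling members 2 of 14 measured genes of the list were higher and 2 lower, with a median of 0.18. The list's median was −0.66 with members under 5% mitochondrial UMIs and −0.05 with members that had no UMI of Ebf1, Il7r or Rag1.

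All 3 measured genes of the basophil and mast cell list were lower, but this is not read as a result about that lineage. Mcpt8 and Prss34 had most of their control UMIs in 1 member, and Ifitm1 was also present in erythroid cells. Ifitm1, an interferon-inducible membrane protein, stood at 195 CPM in control and 106 CPM in knockout members, −0.88 (−1.005 to −0.755), with 129 and 52.3 CPM in erythroid cells. Mcpt8 is described above. Prss34, a protease of basophils and mast cells, stood at 24.96 and 9.83 CPM, with 164 of its 204 control UMIs in 1 member. Without the member with most UMIs in each library its ratio was −0.30, within 1.5-fold, in place of −1.34.

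Energy and stress lists gave 0 or 1 call each, and the median over all measured genes was 0.04. The 20 oxidative phosphorylation genes had 0 calls and a median of −0.14, the 13 mitochondrially encoded genes 0 calls and 0.07, 6 measured p53 targets 0 calls and 0.01, and 4 measured type I interferon genes 0 calls and −0.24. Of 13 measured glycolysis genes 1 was higher, Eno1. Of 14 measured genes of cell cycle brakes and quiescence 1 was higher, Txnip, while Klf2, a factor of quiescence, stood at 185 and 128 CPM, −0.53 (−0.65 to −0.41). Counts were 0 of 5 measured for V(D)J end joining, 0 of 8 for drivers of G1, 0 of 7 for apoptosis, 0 of 4 for plasmacytoid dendritic, 0 of 4 for class II, 0 of 2 for T and innate lymphoid genes and 0 of 1 for Notch targets. Of 3 measured B commitment genes 1 was higher, Igkc, at 51.9 and 125 CPM, of which 364 of 914 knockout UMIs were in 1 member. Its log2 ratio was 1.27, and 0.55 without the member with most UMIs in each library.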

How the data were processed

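Single-cell RNA was measured in 2 libraries, 1 per genotype as labelled. The authors deposited unnormalized UMI counts of 32285 genes, made with 10x Chromium 3′ v3.1 chemistry, Cell Ranger 6.1.2 and mm10, per the submitters' processing notes and the labels' protocols. Coordinates are from GENCODE M21, since the release behind the counts is not stated in the sources used here. Counts were summed per gene and group and scaled to CPM (Python 3.11.15, numpy 2.4.6, scipy 1.17.1). Intervals are exact Poisson for levels, exact binomial (Clopper-Pearson) for shares and exact conditional binomial for ratios. A ratio of shares has a normal interval on the log scale. Scripts were tested on simulated data. Scrublet (scanpy 1.11.5) gave doublet scores, and doublets were removed only in an alternative, with the control library's threshold for both.

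The members, gene lists and tests were chosen with earlier results of these data known. Named genes are up to 12 each way at least 1.5-fold apart with an interval excluding 1 and the same direction in cycling and non-cycling members, up to 10 each way for cycling, and listed genes that are markers, at least 1.5-fold apart or highest in level. Genes that illustrate other lists were added after their values were seen. Sequences are from RefSeq promoters.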

Additional observations from a re-analysis of the deposited data

Results flagged for a closer look

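Several genes moved in opposite directions in 2 groups under the same contrast, each past 1.5-fold. With 1 library per genotype the differences were not tested. For knockout over control, Igkc had a log2 ratio of 1.71 in cycling and −0.59 in non-cycling members, S100a8 had −0.86 and 2.31, and Prss34 had 1.38 and −4.88. Single members held large parts of these counts. Of the Igkc UMIs in knockout members 364 of 914 were in 1 cell, of the S100a8 UMIs in control members 420 of 614, and of the Prss34 UMIs in control members 164 of 204.

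For members over Ebf1/Il7r/Rag1-high cells, Zfp518a had 1.05 in the control and −0.63 in the knockout library. For members with high over low Dntt, Cxcl2 had −0.95 and 0.75, Gm26532 had 0.99 and −0.87, and Ski had −0.63 and 1.03 in the control and knockout libraries.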

How the results depend on the processing

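The share of members, at a log2 ratio of 0.07, was 0.28 with barcodes under 5% mitochondrial UMIs and 0.47 with thinning to 5000 UMIs before the rule. Thinning also changed which cells met the rule, and the cause of these shifts was not tested. With a floor of 100 CPM 16 genes were higher and 13 lower in knockout members, and with no CPM floor but 10 UMIs 941 and 579, as fewer or more genes were measured. The selenoprotein median was −1.68 at the floor of 100 CPM and otherwise stayed between −0.70 and −0.61. Igkc was −0.61 with Dntt of at least 5 UMIs, in place of 1.27, and 0.55 without the member with most of its UMIs in each library. The other 49 recomputed comparison values stayed within their intervals or within 1.5-fold of the count. The cycling ratio ranged from −0.12 to 0.02, and 249 to 355 genes were higher and 67 to 122 lower in cycling members. Of the gene ratios 402 stayed within their counting interval, 29 left it and 1 reversed, and of the list medians 211 stayed and 12 moved. The limits of 10 and 20 UMIs for cycling, and leaving out the member with most UMIs of a gene, were chosen after seeing the data. No paired analysis was possible because each genotype has 1 library.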
